A study of Danio rerio with 4 samples.

Results

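The clustered protocadherins were examined in the RNA of whole zebrafish embryos with a knockout of nexn, the gene of an F-actin-binding protein of the sarcomeric Z-disc, and of wild-type embryos. Members were the genes whose symbol starts with pcdh1 or pcdh2, then letters of the set a, b, c and g and a number, and that had 10 or more reads in at least 2 libraries. This rule took 35 of 32057 genes, from 36 rows with such a symbol. The remaining row, pcdh2ab11, was listed at 0 in all 4 libraries. The member nearest to the minimum was pcdh2ab3, with 18.4 and 11.2 estimated counts for nexn-/- and 3.48 and 0 for nexn+/+. It reached 10 reads only in the nexn-/- libraries, so the rule favours a higher level there in any count that includes it. At 72 hpf, each library held the RNA of a pool of 25 embryos, and there were 2 nexn-/- pools and 2 nexn+/+ pools. The nexn-/- line carries a CRISPR/Cas9-induced deletion in the second exon of nexn that brings in a premature stop codon. The nexn-/- and nexn+/+ embryos came from separate incrosses of adult fish that descend from a heterozygous pair and were housed apart by genotype, so genotype and parents cannot be told apart.

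Clustered protocadherins are adhesion molecules of the cadherin superfamily that are best known from neurons. Each variable exon has its own promoter and encodes the extracellular cadherin repeats, the transmembrane segment and a part of the cytoplasmic tail, and it is spliced to constant exons that all members of an array share. In mouse neurons, different cells use different sets of members, and the combination on the surface serves homophilic recognition and the self-avoidance of neurites. In zebrafish there are 2 loci, Pcdh1 and Pcdh2, each with alpha-type (a) and gamma-type (g) arrays. Members were grouped by the letters of their symbol into 7 subfamilies: pcdh1a with 3 members, pcdh1g with 15, pcdh1gb with 2, pcdh1gc with 2, pcdh2aa with 2, pcdh2ab with 10 and pcdh2g with 1. In the RefSeq gene table of the GRCz12tu assembly, 25 of the 36 rows were found by an unambiguous symbol, those of Pcdh1 on chromosome 10 and those of Pcdh2 on chromosome 14. Of the genes found there, 3 of 3 pcdh1a genes shared one gene end, as did 14 of 15 genes of the pcdh1g array and 6 of 6 of pcdh2aa and pcdh2ab.

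Depth was 20926983 and 21956272 estimated counts for the nexn-/- pools, against 20061135 and 19413597 for the nexn+/+ pools. The members held 0.0852% and 0.0778% of these counts in nexn-/- embryos and 0.126% and 0.152% in nexn+/+ embryos. Levels are given as CPM, counts relative to the TMM-scaled size of the library, or as the deposited FPKM, which also divides by gene length. Calls required an adjusted p under 0.05 together with a log2(FC), nexn-/- over nexn+/+, beyond 0.5. All 35 members were among the 20312 genes tested. Between replicates the members differed by a median of 0.15 on the log2 scale in nexn-/- and 0.247 in nexn+/+ embryos, and all tested genes by 0.134 in nexn-/- and 0.222 in nexn+/+ embryos. The targeted gene nexn (ENSDARG00000057317) had 895 and 1165 counts for nexn-/-, against 1700 and 1496 for nexn+/+. Its log2(FC) was -0.91, with a standard error of 0.168 and an adjusted p of 0.00737 (edgeR), and the call was lost without either nexn-/- pool. As the mutation is a short deletion, this level does not by itself check the genotype.

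Reads of these genes were divided between copies by the quantification to an extent that most genes do not show. Estimated counts come out whole where reads are assigned to a single gene, and between 92% and 93.2% of all genes with counts had whole numbers in each library. Among the members, 0 of 35 and 0 of 35 values above 0 were whole in the nexn-/- libraries and 0 of 34 and 0 of 34 in the nexn+/+ libraries (tolerance 0.001). Values of single members therefore carry an uncertainty of allocation beyond the counting error, and its part in the results was not tested. The sum over a subfamily does not depend on how reads were divided inside it, but pcdh1g, pcdh1gb and pcdh1gc belong to a single array, as pcdh2aa and pcdh2ab may by their shared end, and reads can be divided between them. Sums are given before single members.

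Summed over all 35 members, the level was 800 and 747 CPM for nexn-/-, against 1430 and 1486 CPM for nexn+/+. The libraries of the genotypes did not overlap, and the ratio of the means was 0.531. The largest subfamily in counts, pcdh1g, had 268 and 255 CPM in nexn-/- pools, against 627 and 626 CPM in nexn+/+ pools, that is 261 ± 8.97 and 626 ± 0.829 CPM (SD, n = 2 each), a ratio of 0.417. For pcdh1a the sums were 99.9 and 86.6 CPM in nexn-/- pools, against 160 and 171 CPM in nexn+/+ pools, a ratio of 0.564. The 2 pcdh1gc members, pcdh1gc5 and pcdh1gc6, summed to 131 and 123 CPM in nexn-/- pools, against 181 and 203 CPM in nexn+/+ pools, a ratio of 0.66. In these 3 subfamilies of the Pcdh1 locus the nexn-/- pools lay below the nexn+/+ pools without overlap, as in 34.4% of all tested genes. Over the whole array of pcdh1g, pcdh1gb and pcdh1gc the sum was 406.5 and 385 CPM in nexn-/- pools, against 814 and 836 CPM in nexn+/+ pools, a ratio of 0.48.

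At the Pcdh2 locus, the 10 pcdh2ab members summed to 137 and 130 CPM in nexn-/- pools, against 232 and 238 CPM in nexn+/+ pools, a ratio of 0.57. The only pcdh2g member analysed here, pcdh2g28, had 150 and 140 CPM in nexn-/- pools, against 219 and 233 CPM in nexn+/+ pools, a ratio of 0.642. The 2 smallest sums overlapped between genotypes. For pcdh1gb they were 8.18 and 6.69 CPM in nexn-/- pools, against 6.11 and 7.2 CPM in nexn+/+ pools, and for pcdh2aa 5.95 and 5.86 CPM in nexn-/- pools, against 5.29 and 7.62 CPM in nexn+/+ pools. Sums over members carry no test here, since the members were chosen with results of these data known.

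**Figure D1:**
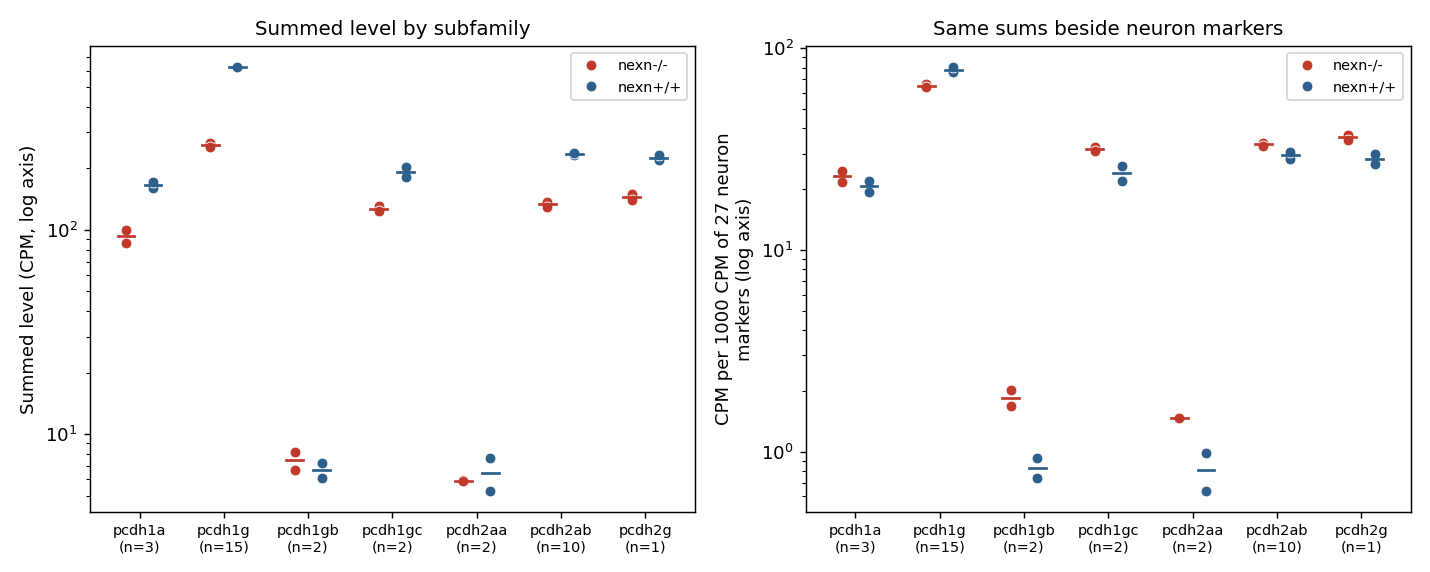
The left panel plots the summed CPM (log axis) of each subfamily in each library, with nexn-/- libraries in red, nexn+/+ libraries in blue and a short line at the mean. The right panel plots the same sums per 1000 CPM of 27 neuron markers. In the left panel 5 of the 7 subfamilies lie lower in nexn-/- embryos without overlap, whereas in the right panel only pcdh1g does. In CPM, 34.4% of all tested genes were lower without overlap, and 47.6% of those with a mean of 10 CPM or more. With libraries scaled to these markers, 74.6% of all tested genes were called higher.

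Neuron markers were lower as well. Beside the lists given here, 13.9% of all tested genes were called lower and 16.7% higher. All 27 genes of a list of neuron markers were tested, and 25 were called lower and 0 higher. Their log2(FC) had a median of -0.95 and ranged from -1.39 to -0.21. Their summed level was 4054 and 3979 CPM in nexn-/- pools, against 8249 and 7779 CPM in nexn+/+ pools. Among the called genes with the largest changes were snap25b, a synaptic SNARE protein, at 134 and 141 CPM in nexn-/- against 370 and 355 CPM in nexn+/+ embryos, and sv2a, a synaptic vesicle protein, at 148 and 127 CPM in nexn-/- against 387 and 330 CPM in nexn+/+ embryos. Of 13 rows for neural progenitor markers 10 were called lower and 1 higher, with a median of -0.70, and of 10 glial markers 4 were called lower and 1 higher, with a median of -0.45. All 13 tested photoreceptor markers were called lower, with a median of -1.37. No marker on these lists was at 0 in all libraries. In RNA of whole embryos, fewer cells of a type and less RNA per cell cannot be told apart, and the part of neuron content in the protocadherin results was not tested beyond the values given here.

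Set beside the neuron markers, the members as a whole did not separate the genotypes. All 35 members had 197 and 188 CPM per 1000 CPM of the 27 neuron markers for nexn-/-, against 173 and 191 for nexn+/+. Also pcdh1a overlapped, at 24.6 and 21.8 in nexn-/- pools, against 19.4 and 22.01 in nexn+/+ pools. By contrast, pcdh1g was lower without overlap, at 66.04 and 64.1 in nexn-/- pools, against 76.0 and 80.4 in nexn+/+ pools. Without pcdh1g26 its values were 61.7 and 58.5 in nexn-/- pools, against 64.0 and 66.8 in nexn+/+ pools. The other 5 subfamilies were higher without overlap. With libraries scaled to the same markers, 74.6% of all tested genes were called higher and 0.773% lower, so a rise is common by this measure. For pcdh1gc the values were 32.2 and 31.0 in nexn-/- pools, against 21.98 and 26.1 in nexn+/+ pools. For pcdh2g they were 37.1 and 35.1 in nexn-/- pools, against 26.6 and 29.9 in nexn+/+ pools, and for pcdh2ab 33.9 and 32.7 in nexn-/- pools, against 28.1 and 30.6 in nexn+/+ pools. The values of pcdh1gb were 2.02 and 1.68 in nexn-/- pools, against 0.741 and 0.926 in nexn+/+ pools, and those of pcdh2aa were 1.47 in both nexn-/- pools, against 0.641 and 0.98 in nexn+/+ pools.

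Of the 35 members, 15 were called lower and 2 higher in nexn-/- embryos (edgeR), where 13.9% of all tested genes were called lower and 16.7% higher. Their median log2(FC) was -0.50, against 0.02 over all tested genes. The nexn-/- pools lay entirely below the nexn+/+ pools in 19 members and entirely above them in 5, against 34.4% and 36.4% of all tested genes, and 11 members overlapped. The 5 include pcdh2ab3, whose selection favoured nexn-/- embryos. With nexn-/- replicate 1 or 2 left out, the spread came from the nexn+/+ pair alone, and edgeR called 0 members in either direction. In both cases it then called 4 of all genes higher (0.0192%) and 0 lower. In these edgeR fits the tested members kept a median log2(FC) below 0, at -0.54 (nexn-/- replicate 1 left out) and -0.47 (nexn-/- replicate 2 left out). In the next 2 sentences the DESeq2 shares are of the genes to which it gave an adjusted p. These were 17966 without nexn-/- replicate 1 and 17565 without nexn-/- replicate 2. Without nexn-/- replicate 1, limma-voom called 10 members lower (3.89% of all genes) and DESeq2 9 (3.07%), and without nexn-/- replicate 2 they called 9 (4.15%) and 8 (2.97%). Neither called a member higher, where limma-voom called 3.93% and 4.49% of all genes higher and DESeq2 3.07% and 3.27%. Without nexn+/+ replicate 1, edgeR called 17 members lower and 4 higher (17.3% and 23.5% of all genes), and without nexn+/+ replicate 2 it called 17 lower and 5 higher (15.5% and 20.2%). In the fits without a nexn+/+ library the spread came from the nexn-/- pair alone, whose replicates lay closer together. Their counts of calls rest on that smaller spread. The members had a median difference of 0.15 between nexn-/- replicates, against 0.247 between nexn+/+ replicates. The log2(FC) of the 15 members called lower stayed below -0.5 with each library left out, except for pcdh1gc5 without nexn-/- replicate 2 (-0.47). These 15 were called from the same libraries, so this is a description and no separate check. With all 4 libraries, DESeq2 called 15 members lower and 1 higher (13.4% and 14.4% of all genes). With the libraries scaled to the ribosomal protein gene rpl13, 11 were lower and 4 higher (7.22% and 25% of all genes). Beyond a log2(FC) of 1, 7 were lower and 0 higher (4.54% and 10.9% of all genes, edgeR). With the replicate number as a block, 16 were lower and 2 higher (13.5% and 16.8% of all genes), with pcdh2ab12 and pcdh2ab3 gained and pcdh1g1 lost.

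The calls were unevenly spread over levels. Of the 16 members whose mean over the 4 libraries was at least 10 CPM, 14 were called lower and 0 higher, and none of the 16 overlapped between genotypes. Among all tested genes of that level, 21.2% were called lower and 13.5% higher. Of these genes, 47.6% were lower in nexn-/- embryos without overlap, 27.9% higher without overlap, and 24.5% overlapped. Of the 19 members under 10 CPM, 1 was called lower and 2 higher, and 11 overlapped. Among all tested genes of that level, 5.95% were called lower and 20.2% higher, and 34.3% overlapped. Across members, log2(FC) and mean CPM had a Spearman's rho of -0.74 (n = 35), and across all 20312 tested genes of -0.32. The members include pcdh2ab3, with the lowest mean and the largest log2(FC), which reached 10 reads only in the nexn-/- libraries. Members share libraries and, within an array, reads, so the rho is a description.

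**Figure D2:**
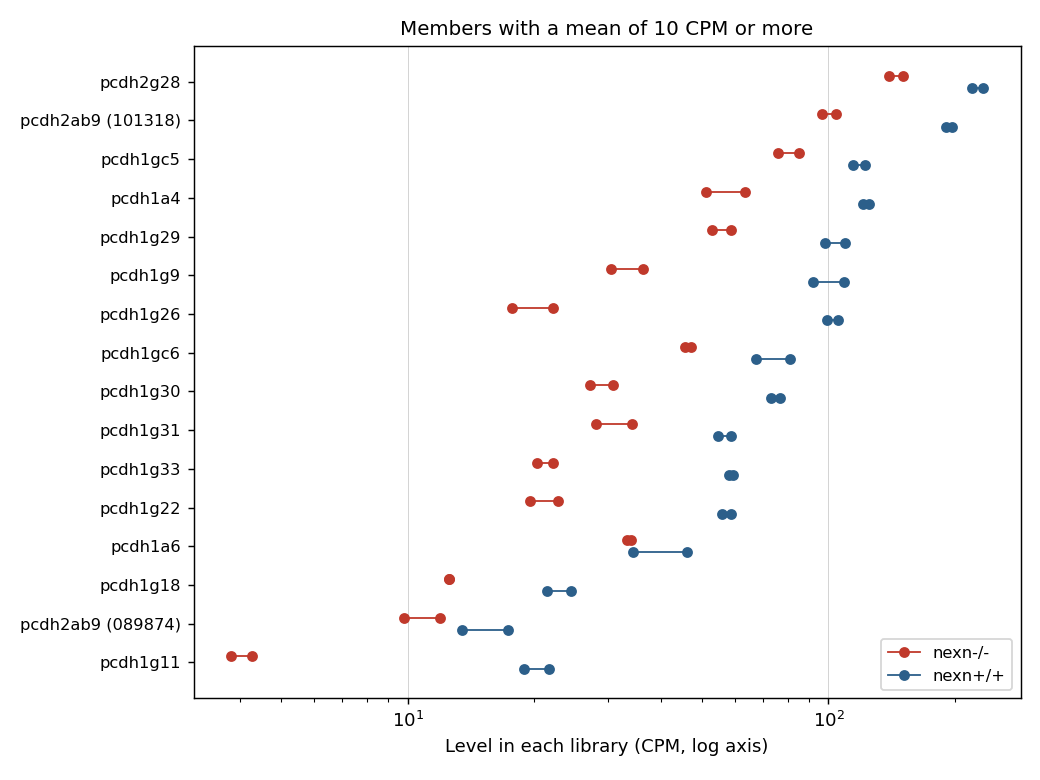
The plot gives the CPM (log axis) of the 16 members whose mean was at least 10 CPM, in each library, with nexn-/- libraries in red and above the nexn+/+ libraries in blue. Numbers in brackets are the last digits of the gene identifier where a symbol occurs on more than one row. In every row both red points lie left of both blue points, as in 47.6% of all tested genes of that level. The gap is widest for pcdh1g11 and pcdh1g26.

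**Figure D3:**
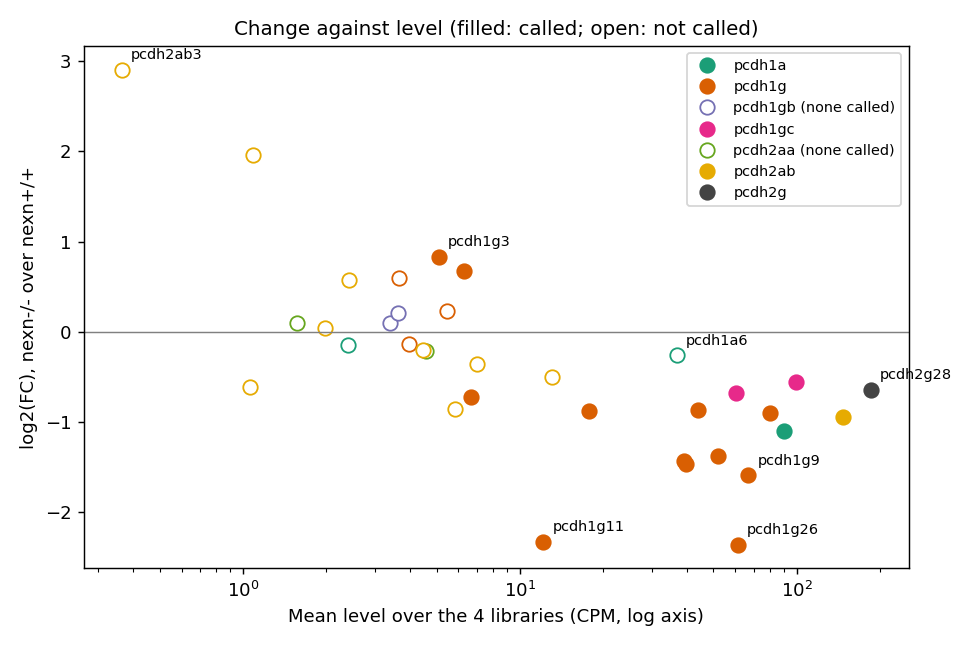
The plot sets log2(FC), nexn-/- over nexn+/+, against the mean CPM of the 4 libraries (log axis) for the 35 members, coloured by subfamily, with filled points for called members. Filled points below 0 lie above 10 CPM except for pcdh1g32, and the value of pcdh2ab3 at the upper left rests on at most 18.4 counts per library.

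The pcdh1g subfamily held the strongest changes. Of its 15 members 10 were called lower and 2 higher, where 13.9% of all tested genes were called lower and 16.7% higher. The median log2(FC) of the 15 was -0.88. The level of pcdh1g26 (ENSDARG00000099931) was 17.7 and 22.1 CPM for nexn-/-, against 99.0 and 105.5 CPM for nexn+/+, and its log2(FC) was -2.36 with a standard error of 0.139 (adjusted p = 0.000685, edgeR). The level of pcdh1g11 (ENSDARG00000101665) was 4.26 and 3.81 CPM in nexn-/- pools, against 21.7 and 18.9 CPM in nexn+/+ pools, and its log2(FC) was -2.33 with a standard error of 0.17 (adjusted p = 0.000949, edgeR). These were the lowest log2(FC) values among the members in this fit, but that of pcdh1g26 was -1.36 once its effective length was taken into account, behind pcdh1g11, pcdh1g9, pcdh1g33, pcdh1g22 and pcdh1g30. A further 4 members had a log2(FC) between -1.59 and -1.37. Of these, pcdh1g9 (ENSDARG00000057519) was at 36.2 and 30.4 CPM in nexn-/- pools, against 109 and 91.7 CPM in nexn+/+ pools (log2(FC) -1.59, standard error 0.141, adjusted p = 0.00121, edgeR). The nexn+/+ replicates of pcdh1g9 lay further apart than those of the next 3 genes. The level of pcdh1g33 was 22.1 and 20.3 CPM in nexn-/- pools, against 57.9 and 59.5 CPM in nexn+/+ pools, a log2(FC) of -1.47. That of pcdh1g22 was 22.8 and 19.6 CPM in nexn-/- against 58.6 and 55.8 CPM in nexn+/+ embryos, a log2(FC) of -1.44. That of pcdh1g30 was 30.7 and 27.1 CPM in nexn-/- pools, against 76.8 and 73.1 CPM in nexn+/+ pools, a log2(FC) of -1.37. In these 4 genes the gap between genotypes was several times wider than the gap between replicates.

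Smaller falls were measured in the other called members of pcdh1g and in pcdh1gc. The level of pcdh1g29 (ENSDARG00000104497) was 52.9 and 58.7 CPM in nexn-/- pools, against 98.3 and 110 CPM in nexn+/+ pools (log2(FC) -0.90, standard error 0.117, adjusted p = 0.00238, edgeR). The level of pcdh1g18 was 12.5 CPM in both nexn-/- pools, against 24.5 and 21.5 CPM in nexn+/+ pools (log2(FC) -0.88). The log2(FC) was -0.86 for pcdh1g31 and -0.73 for pcdh1g32. In the pcdh1gc subfamily both members were called lower. The more abundant of them per length, pcdh1gc5 (ENSDARG00000104826), was at 85.0 and 76.0 CPM in nexn-/- pools, against 114 and 122 CPM in nexn+/+ pools (log2(FC) -0.56, standard error 0.114, adjusted p = 0.0109, edgeR). Its log2(FC) was under the limit with 3 other scalings, at -0.41 for library size, -0.45 for the upper quartile and -0.32 for rpl13.

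Both members called higher were low-level genes at the start of the pcdh1g array. The level of pcdh1g3 (ENSDARG00000099646) was 6.46 and 6.61 CPM in nexn-/- pools, against 3.91 and 3.43 CPM in nexn+/+ pools (log2(FC) 0.83, standard error 0.216, adjusted p = 0.0247, edgeR). That of pcdh1g1 (ENSDARG00000104007) was 7.54 and 7.87 CPM in nexn-/- pools, against 4.65 and 4.99 CPM in nexn+/+ pools (log2(FC) 0.68, standard error 0.195, adjusted p = 0.0358, edgeR). For pcdh1g3 these levels stand on 144 and 151 estimated counts in nexn-/- pools, against 69.4 and 68.4 in nexn+/+ pools, none of them whole. The call of pcdh1g1 was lost with DESeq2 (adjusted p = 0.0758) and with the replicate number as a block (adjusted p = 0.0576, edgeR). The low-level members near them in the array, pcdh1g2 and pcdh1gb2, were not called, nor was pcdh1gb9 further along it. The level of pcdh1g2 was 6.51 and 5.34 CPM in nexn-/- pools, against 4.14 and 5.9 CPM in nexn+/+ pools, and that of pcdh1gb9, the pcdh1gb member with the higher mean FPKM, was 4.49 and 3.32 CPM in nexn-/- pools, against 2.66 and 4.08 CPM in nexn+/+ pools. Both pcdh1g2 and pcdh1gb9 overlapped between genotypes.

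Along the pcdh1g array, members were ordered by the number in their symbol, with pcdh1gb2, pcdh1gb9, pcdh1gc5 and pcdh1gc6 placed at 5, 12, 27 and 28 by their plain synonyms in RefSeq. Of the 4 members numbered up to 5, 2 were called higher and 0 lower, and all 4 had a log2(FC) above 0, with a median of 0.46. All 4 lie under 10 CPM, where 20.2% of all tested genes were called higher and the median was 0.27. Of the 7 numbered 9 to 22, 4 were called lower and 0 higher. All 8 members numbered 26 and above were called lower. Over all levels, 13.9% of all tested genes were called lower and 16.7% higher. The order and the level are linked, since the 4 members up to 5 had means of at most 6.26 CPM. Further along, pcdh1gb9, pcdh1g13 and pcdh1g14, numbered 12 to 14 and also under 10 CPM, were not called. Their log2(FC) was 0.21, 0.60 and -0.13. By contrast, pcdh1g32, also under 10 CPM, was called lower (log2(FC) -0.73). The parts of position and level were not tested. Spearman's rho of log2(FC) over the 19 members was -0.65 with mean CPM and -0.5 with array number.

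**Figure D4:**
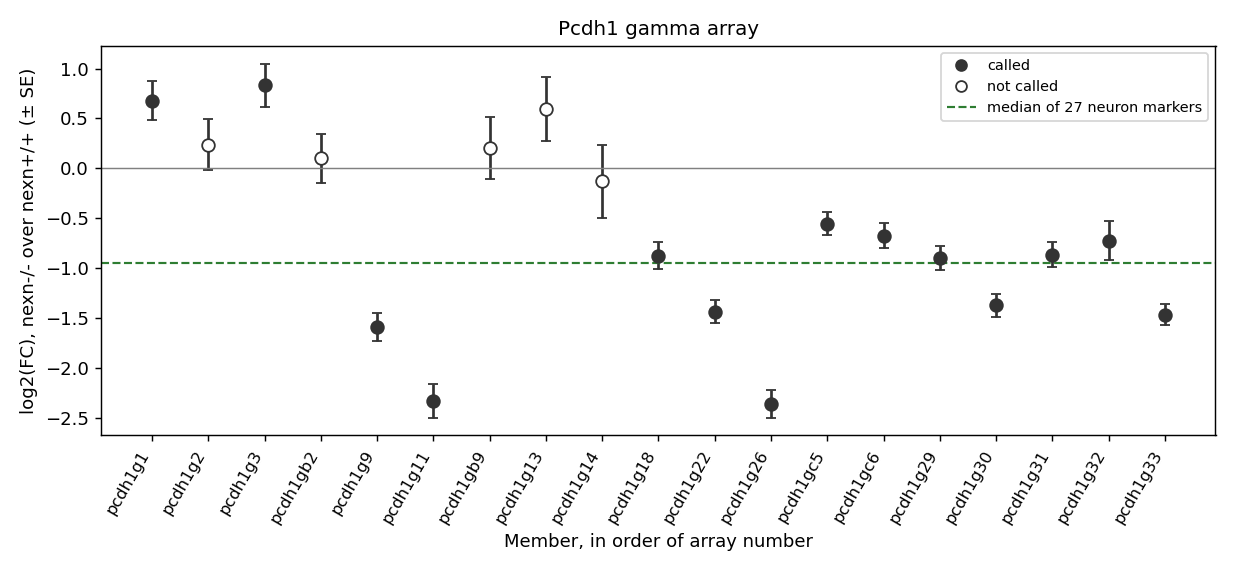
The plot gives log2(FC), nexn-/- over nexn+/+, with its standard error for the 19 members of the pcdh1g array (pcdh1g, pcdh1gb and pcdh1gc) in order of array number, with filled points for called members. The dashed line marks the median of the 27 neuron markers, -0.95, and the markers themselves range from -1.39 to -0.21. The members pcdh1g9, pcdh1g11, pcdh1g22, pcdh1g26, pcdh1g30 and pcdh1g33 lie below the line, with pcdh1g30 inside the range of the markers.

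The make-up of the array also differed between genotypes. Members numbered up to 5 took 5.96% and 6.02% of the counts of the array for nexn-/-, against 1.99% and 2.08% for nexn+/+, without overlap. The sum of the array fell to a ratio of 0.48, so a share can rise without a higher level. The share of pcdh1g32, called lower, was 1.18% and 1.35% in nexn-/- pools, against 1.07% and 0.938% in nexn+/+ pools. Shares of other low-level members, pcdh1gb9, pcdh1g13 and pcdh1g14 (log2(FC) -0.13), were also higher without overlap. That of pcdh1g13 was 1.15% and 1.1% in nexn-/- pools, against 0.258% and 0.445% in nexn+/+ pools. All tested genes under 10 CPM had a median log2(FC) of 0.27. Members numbered 26 and above took 72.1% and 74% in nexn-/- pools, against 70.8% and 73.9% in nexn+/+ pools, which overlap. The share of pcdh1g9 was 8.91% and 7.88% in nexn-/- pools, against 13.4% and 10.97% in nexn+/+ pools. That of pcdh1g26 was 4.36% and 5.75% in nexn-/- pools, against 12.2% and 12.6% in nexn+/+ pools, and that of pcdh1gc5 20.9% and 19.8% in nexn-/- pools, against 14.0% and 14.6% in nexn+/+ pools. The member pcdh1gc5 held the largest share of counts in every library, by a wider margin in nexn-/- embryos. Per length, in FPKM, the share of pcdh1g26 was 15.4% and 24.2% in nexn-/- pools, against 25.9% and 24.3% in nexn+/+ pools. That of pcdh1gc5 was then 18.0% and 15.5% in nexn-/- pools, against 11.7% and 12.5% in nexn+/+ pools. By FPKM, pcdh1g26 lay above pcdh1gc5 except in nexn-/- replicate 1. Over the 35 members, the pcdh1g subfamily held 33.5% and 34.1% of the counts in nexn-/- pools, against 43.8% and 42.1% in nexn+/+ pools. Taken per length, the effective number of array members in use (the exponential of the Shannon entropy of FPKM shares) was 12.8 and 11.5 in nexn-/- pools, against 10.5 and 10.9 in nexn+/+ pools. It was higher in both nexn-/- libraries.

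The alpha-type members of Pcdh1 differed among themselves. The level of pcdh1a4 (ENSDARG00000097170) was 63.4 and 51.3 CPM in nexn-/- pools, against 121 and 125 CPM in nexn+/+ pools (log2(FC) -1.10, standard error 0.132, adjusted p = 0.00193, edgeR). That of pcdh1a6 (ENSDARG00000104598), the pcdh1a member with the highest mean FPKM, was 33.9 and 33.3 CPM in nexn-/- pools, against 34.4 and 46.2 CPM in nexn+/+ pools. With a log2(FC) of -0.26 and a standard error of 0.152 it did not pass (adjusted p = 0.222, edgeR). In pcdh1a3 the nexn+/+ replicates lay further apart than the genotypes, with 56.3 and 46.0 counts in nexn-/- pools, against 80.6 and 9.51 in nexn+/+ pools. Its log2(FC) of -0.15 turned to 2.15 without nexn+/+ replicate 1 and was -1.03 without nexn+/+ replicate 2. In counts, pcdh1a4 held 63.5% and 59.2% of the pcdh1a counts in nexn-/- pools, against 75.6% and 72.8% in nexn+/+ pools. Per length, pcdh1a6 was the higher of them in the nexn-/- pools, at 20.4 and 18.8 FPKM against 12.5 and 9.87 FPKM for pcdh1a4.

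At the Pcdh2 locus 2 of 13 members were called lower and 0 higher, where 13.9% of all tested genes were called lower, so the share lower is near that of all genes. The 2 called were those with most counts. The level of pcdh2ab9 (ENSDARG00000101318) was 104 and 96.3 CPM in nexn-/- pools, against 197 and 191 CPM in nexn+/+ pools (log2(FC) -0.95, standard error 0.111, adjusted p = 0.00179, edgeR). It held 75.9% and 74% of the pcdh2ab counts in nexn-/- pools, against 84.9% and 80.1% in nexn+/+ pools. The level of pcdh2g28 (ENSDARG00000098788) was 150 and 140 CPM in nexn-/- pools, against 219 and 233 CPM in nexn+/+ pools (log2(FC) -0.64, standard error 0.114, adjusted p = 0.00672, edgeR), and with the scalings to library size and to rpl13 its log2(FC) was -0.495 and -0.40, under the limit. The tables give the symbol pcdh2ab9 to a further row, ENSDARG00000089874, which a separate gene name table lists as pcdh2ab8. Its level was 9.78 and 11.9 CPM in nexn-/- pools, against 13.4 and 17.3 CPM in nexn+/+ pools, and with a log2(FC) of -0.50 and a standard error of 0.187 it did not pass (adjusted p = 0.078, edgeR).

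The remaining 10 members of Pcdh2 had means of at most 7.01 CPM. For pcdh2aa15, the pcdh2aa member with the higher mean FPKM, levels were 4.35 and 4.16 CPM in nexn-/- pools, against 4.02 and 5.85 CPM in nexn+/+ pools, which overlap. The largest fitted values of all members stood on few counts. The row of pcdh2ab2 with the identifier ENSDARG00000099468 had 41.1 and 37.6 counts in nexn-/- pools, against 0 and 17.0 in nexn+/+ pools (adjusted p = 0.13, edgeR), whereas the other row of that symbol, ENSDARG00000037691, had 48.7 and 42.5 counts in nexn-/- pools, against 28.0 and 46.2 in nexn+/+ pools. The adjusted p of pcdh2ab3 was 0.0555 (edgeR). This member reached 10 reads only in the nexn-/- libraries, so a difference in its favour was built into its selection.

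The effective length of a gene, computed from its deposited counts and FPKM, changes between libraries when the quantification assigns its reads to transcripts of other lengths. It could be read to within rounding in 29 members with an FPKM of 0.5 or more in every library, and in 25 of these the longest value was at most 1.041 times the shortest. In pcdh1g26 it was 995 and 763 nucleotides for nexn-/-, against 1620 and 1820 for nexn+/+, 2.385 times between the shortest and the longest. The FPKM of pcdh1g26 was 18.98 and 30.2 in nexn-/- pools, against 53.8 and 59.3 in nexn+/+ pools, and its log2(FC) was -1.36 with effective length as an offset, against -2.36 without. In that fit its fall was of about the size of those of pcdh1g22, pcdh1g30 and pcdh1g33, and pcdh1g11 had the lowest log2(FC) of all members, at -2.33. For every other member the log2(FC) moved by at most 0.115. With lengths, 2 members were called higher and 15 lower, where 16% and 13.4% of all tested genes were.

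**Figure D5:**
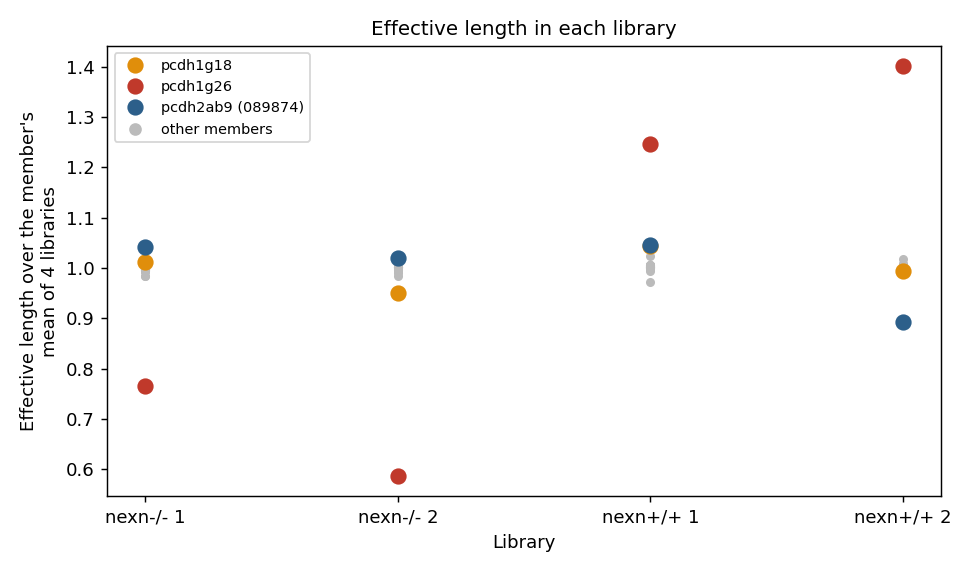
The plot gives the effective length in each library divided by the mean of the 4 libraries for the 29 members with an FPKM of 0.5 or more in every library. For pcdh1g26 the nexn-/- points lie below 1 and the nexn+/+ points above 1, whereas in pcdh1g18 and the pcdh2ab9 row ENSDARG00000089874 the spread does not separate the genotypes and the other members stay near 1.

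Several members are long by this measure. The pcdh2ab9 row ENSDARG00000101318 had 7571 and 7594 nucleotides in nexn-/- pools, against 7577 and 7566 in nexn+/+ pools, and pcdh1a4 had 5392 and 5409 in nexn-/- pools, against 5443 and 5434 in nexn+/+ pools. Most pcdh1g members lay near pcdh1g9, at 4067 and 4050 in nexn-/- pools, against 4115 and 4125 in nexn+/+ pools, whereas pcdh1g13 was at 2150 and 2164 in nexn-/- pools, against 2150 and 2147 in nexn+/+ pools. Counts of long members therefore overstate their level beside short ones. Compared per length in FPKM, pcdh2g28 was highest in the nexn-/- pools, at 33.7 and 30.5, followed by pcdh1g26 at 18.98 and 30.2, pcdh1gc5 at 22.2 and 19.3 and pcdh1a6 at 20.4 and 18.8. The replicates of pcdh2g28 and pcdh1g26 came close without overlapping, and those of pcdh1g26, pcdh1gc5 and pcdh1a6 overlapped. In the nexn+/+ pools pcdh1g26 led at 53.8 and 59.3, above pcdh2g28 at 38.9 and 48.9, without overlap.

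To set single members against the neuron content of each library, the counts were also scaled to the summed counts of the 27 neuron markers, a scaling chosen after seeing the data. It moved the fold changes of nearly all genes upwards, so that 74.6% of all tested genes were called higher and 0.773% lower. Of the members, 15 were called higher and 3 lower. The 3 called lower were pcdh1g26 (log2(FC) -1.36, adjusted p = 0.000168, edgeR), pcdh1g11 (log2(FC) -1.33, adjusted p = 0.000429, edgeR) and pcdh1g9 (log2(FC) -0.59, adjusted p = 0.0041, edgeR). With effective length as an offset on top of this scaling, pcdh1g26 was no longer called (log2(FC) -0.35, adjusted p = 0.162, edgeR), whereas pcdh1g11 (-1.33) and pcdh1g9 (-0.57) were, the only 2 members called lower beside 14 called higher. In that fit 0.773% of all tested genes were called lower and 73.9% higher. With the scaling alone, for pcdh1g33, pcdh1g22 and pcdh1g30 the log2(FC) was -0.47, -0.44 and -0.38, under the limit. Values near 0 included those of pcdh1g29 (0.10), pcdh1a4 (-0.10) and the pcdh2ab9 row ENSDARG00000101318 (0.05), with adjusted p-values of 0.523, 0.502 and 0.728 (edgeR). Of the 15 called higher, 14, pcdh2ab3 among them, were under 10 CPM, and the other was pcdh1a6 (log2(FC) 0.73, adjusted p = 0.00531, edgeR).

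Related genes outside the clusters were looked at by lists, beside 13.9% of all tested genes called lower and 16.7% called higher. Of 19 tested rows for non-clustered protocadherins, adhesion molecules with their own full gene each, 6 were called lower and 2 higher, with a median log2(FC) of -0.30. Those called lower included pcdh11 (ENSDARG00000105441), at 14.2 and 11.1 CPM in nexn-/- against 38.4 and 34.2 CPM in nexn+/+ embryos. A further row of pcdh11, ENSDARG00000098652, was not called (log2(FC) -0.41), at 22.2 and 19.8 CPM in nexn-/- against 24.4 and 31.3 CPM in nexn+/+ embryos. Also called lower was pcdh10b, at 80.5 and 84.7 CPM in nexn-/- against 153 and 157 CPM in nexn+/+ embryos. The largest rise was that of pcdh12, known from endothelium in mouse, at 7.22 and 5.38 CPM in nexn-/- against 1.64 and 0.958 CPM in nexn+/+ embryos (log2(FC) 2.28, adjusted p = 0.00362, edgeR). Also called higher was pcdh20 (ENSDARG00000101910, log2(FC) 0.91), whereas another row of that symbol, ENSDARG00000036424, was not called (log2(FC) -0.32). Of 10 tested cadherins, 3 were called lower and 0 higher, among them cdh4 (log2(FC) -0.98), and the median was -0.37.

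CTCF and cohesin bind at promoters and enhancers of the clusters in mammals, and DNA methylation marks unused promoters there. Of 24 tested genes for CTCF, cohesin, its loaders and regulators, and DNA methylation, 3 were called lower and 1 higher, and the median log2(FC) was -0.19, but 0.04 with the scaling to rpl13. These shares do not exceed the 13.9% and 16.7% of all tested genes that were called lower and higher. The 3 called lower were stag1a, a cohesin subunit, at 41.7 and 40.1 CPM in nexn-/- against 68.1 and 62.1 CPM in nexn+/+ embryos, nipblb, a cohesin loader (log2(FC) -0.61), and pds5b, a cohesin regulator (log2(FC) -0.55). The DNA methyltransferase gene dnmt3bb.1 was called higher (log2(FC) 0.63). On the cytoplasmic side, where protocadherin tails act on focal adhesion kinases and on the actin-regulating WAVE complex, 3 of 15 tested genes were called higher and 2 lower, with a median log2(FC) of -0.06 that was 0.07 with library size alone and 0.16 with rpl13. These shares are near the 16.7% and 13.9% of all tested genes. The called genes included the WAVE complex genes cyfip1, at 85.1 and 78.5 CPM in nexn-/- against 47.8 and 40.6 CPM in nexn+/+ embryos, and cyfip2, at 123 and 121 CPM in nexn-/- against 214 and 238 CPM in nexn+/+ embryos, which moved in opposite directions. The largest called change on this list was the rise of rac1b (log2(FC) 1.26). The kinase gene ptk2bb also rose (log2(FC) 0.93) and fyna fell (log2(FC) -0.68).

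Skeletal muscle genes served as a list of another tissue. Their summed level was 79940 and 84900 CPM in nexn-/- pools, against 131100 and 59590 CPM in nexn+/+ pools, so that the nexn+/+ replicates lay on either side of the nexn-/- replicates. Of 16 tested rows 1 was called higher and 0 lower, against 16.7% and 13.9% of all tested genes. The summed protocadherins of the nexn+/+ replicates were 1430 and 1486 CPM, with TMM factors of 0.88 and 1.02, and 323 and 395 in deposited FPKM. The part of muscle RNA in the results was not tested.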

How the data were processed

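RNA of whole embryos was analysed in 4 libraries, and genotype and replicate number were taken from the sample labels. Per the labels, reads were mapped to GRCz11, and STAR and RSEM were named without versions or roles. The annotation release is not given in the sources used here. Deposited were, for each gene, estimated counts that can be fractional, TPM values and FPKM values. TPM was not used further. From counts and FPKM, effective length was computed as the count over the product of FPKM and library total. Column headings of the 4 tables carry the name of a single library, so each table was assigned by its deposition record. Sequences of the members were not used here.

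Rounded counts were tested with edgeR 4.0.16 under R 4.3.3 (filterByExpr, TMM, quasi-likelihood test on genotype, Benjamini-Hochberg adjustment over 20312 genes); the standard error is the log2(FC) over the root of the F statistic. The common biological coefficient of variation was 0.146. The study used DESeq2. Alternatives here were DESeq2 1.42.0, limma-voom (limma 3.58.1), other scalings and filters, effective length as an offset, a replicate block and leaving out each library. The test was first checked on simulated counts with the same spread in both groups and few changed genes. That check does not cover data such as these, with a wider spread between nexn+/+ replicates and many genes called. The labels call the libraries biological replicates; with 2 per genotype, p-values measure the spread between these pools. Members near 1 CPM stand on few counts per library, and their counting error is large.

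Named were nexn, the member with the highest mean FPKM per subfamily and up to 6 members that effective length moved most. Up to 8 called members with the largest and up to 8 with the smallest log2(FC) were named too, and up to 4 called genes per list. Other members and list genes named were chosen after their values were seen. Members and lists were chosen with earlier results of these data known.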

Additional observations from a re-analysis of the deposited data

How the results depend on the processing

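The 18 named members were recomputed under 12 settings other than leaving out a library, and 179 of 201 values kept direction and call, 12 lost the call, 1 gained it and 9 reversed. Of the 12 settings, neuron markers together with effective length was fitted for every member but counted here for only 3, pcdh1g26, pcdh1g11 and pcdh1g9. Reversals in that fit outside these counts were pcdh1a6 (log2(FC) 0.72), pcdh1g18 (0.18), pcdh1g29 (0.08), pcdh1gc5 (0.45) and pcdh2aa15 (0.77). Further ones were pcdh2g28 (0.40) and the pcdh2ab9 rows ENSDARG00000089874 (0.38) and ENSDARG00000101318 (0.04). Scaling to the neuron markers, chosen after seeing the data, gave 8 of the 9 reversals, with log2(FC) values of 0.73 for pcdh1a6, 0.12 for pcdh1g18, 0.10 for pcdh1g29, 0.44 for pcdh1gc5, 0.77 for pcdh2aa15, 0.49 and 0.0465 for the pcdh2ab9 rows ENSDARG00000089874 and ENSDARG00000101318 and 0.35 for pcdh2g28. This scaling called 15 members higher and 3 lower, where 74.6% and 0.773% of all tested genes were. It gave a median of 0.49 over the members and a log2(FC) of 0.0882 for nexn. The ninth was pcdh2aa15 with the libraries scaled to rpl13 (0.0049). Members called higher numbered 1 with DESeq2, 4 with the rpl13 scaling and 0 with a log2(FC) beyond 1 (edgeR). Of all tested genes, 14.4%, 25% and 10.9% were called higher under these settings. Beyond a log2(FC) of 1, 7 members and 4.54% of all tested genes were called lower. The median over the members was -0.37 with library size alone and -0.28 with the rpl13 scaling, settings that moved the median of all tested genes by 0.147 and 0.234, and the upper quartile moved it by 0.103. With each library left out in turn, where a lone library is assumed to vary like the others, members called higher ranged from 0 to 5 and lower from 0 to 17, the median from -0.60 to -0.32, nexn from -1.09 to -0.73, pcdh1gb9 from -0.0647 to 0.54 and pcdh2aa15 from -0.46 to 0.0746. In deposited FPKM the log2 ratios of summed levels were -0.47 for pcdh1a, -1.02 for pcdh1g, -0.45 for pcdh1gc, -0.56 for pcdh2ab, -0.45 for pcdh2g and -0.71 for all members. In unscaled counts they were -0.56, -0.99, -0.34, -0.55, -0.38 and -0.65 in the same order, and 0.42 for pcdh1gb. In CPM they were -0.83, -1.26, -0.60, -0.81, -0.64, -0.91 and 0.16. With the replicate number as a block, 2 members were called higher and 16 lower, with pcdh1g1 lost and pcdh2ab3 and pcdh2ab12 gained. Libraries of the same number did not deviate together (correlation of deviations across genes -0.0307). With 2 libraries per genotype, this cannot decide whether the numbers pair the samples.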
